A study of Mus musculus with 6 samples.

Results

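Every transcript of the mitochondrial genome listed in the data, meaning each row whose gene symbol starts with mt-, was followed across 3 wild-type (WT) and 3 Yy1 knockout (Yy1-KO) libraries. There were 15 such rows among the 15553 listed: the 13 messenger RNAs (mRNAs) that the mitochondrial genome encodes and its 2 ribosomal RNAs (rRNAs). The 22 mitochondrial tRNA genes of the annotation were not analysed here, because all 15 rows were mRNAs or rRNAs. The series asked what loss of YY1, a zinc-finger transcription factor and Polycomb group protein, does to the resting state of blood stem cells. The cells came from bone marrow of C57BL/6 mice aged 6 to 8 weeks and were sorted as lineage-negative, Sca1-positive and c-Kit-positive. The protocol names CD48-negative gates with and without CD150, while the source given for each sample has CD150 as positive, so the gate of a library is not settled. WT libraries came from mice of genotype Mx1-Cre, and Yy1-KO libraries from mice of genotype Yy1f/f;Mx1-Cre, in which loxP sites flank Yy1. Both groups thus carried the Cre recombinase gene, driven by the interferon-inducible Mx1 promoter, which is not restricted to blood stem cells. The labels number the libraries of each genotype without saying whether each is 1 mouse, so the p-values below measure the spread between libraries, which may be technical.

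The mitochondrial genome is a small circle transcribed from both strands into long precursor RNAs by its own polymerase, POLRMT, together with the factors TFAM and TFB2M. The precursors are cut mainly at the tRNAs that lie between the other genes, and the LRPPRC protein then protects many of the mRNAs. Its mRNAs encode subunits of respiratory complexes I, III, IV and V, made on mitochondrial ribosomes that contain the 2 rRNAs, while all other subunits are encoded in the nucleus. Resting blood stem cells are known for a low rate of mitochondrial respiration.

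The arrangement of the genes is shown first, because reads are counted by gene. In the annotation GENCODE M21, on GRCm38 (mm10), mt-Rnr1, the 12S rRNA of the small mitochondrial ribosomal subunit, lies at chrM:70-1024. The 16S rRNA of the large subunit, mt-Rnr2, follows at chrM:1094-2675, and the valine tRNA mt-Tv fills the space between. The stretch below holds the last bases of mt-Rnr1, the tRNA in capitals and the first bases of mt-Rnr2 (chrM:995-1123, plus strand).
mt-Rnr1 to mt-Rnr2: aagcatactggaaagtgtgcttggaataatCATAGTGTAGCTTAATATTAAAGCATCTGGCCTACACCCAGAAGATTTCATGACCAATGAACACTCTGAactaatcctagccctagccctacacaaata

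Neighbouring coding sequences can also overlap. The ATP synthase genes mt-Atp8 and mt-Atp6 share 43 bases, in capitals below (chrM:7897-7999, plus strand), so a read inside them fits both genes. The complex I genes mt-Nd4l and mt-Nd4 share 7 bases. The coding sequences of mt-Nd5 and of mt-Nd6, the only mRNA gene on the minus strand of the annotation, lie over each other by 14 bases on opposite strands.
mt-Atp8 to mt-Atp6: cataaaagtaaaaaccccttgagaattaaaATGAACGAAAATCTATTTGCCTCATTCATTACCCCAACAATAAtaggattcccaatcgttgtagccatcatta

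A second feature of the sequence bears on most of the mRNA values. Part of the mitochondrial genome is repeated in the nuclear genome on chromosome 1, where 7 pseudogenes on the minus strand between bases 24611535 and 24616197 matched 7 mitochondrial mRNAs at 99% identity or more over at least 100 aligned bases. All 7 pseudogenes were listed with their own values. The copies of mt-Co2 (Gm28661, 681 bases aligned), mt-Atp6 (Gm10925, 678 bases), mt-Co3 (Gm28437, 783 bases), mt-Nd4l (Gm10222, 294 bases) and mt-Nd4 (Gm28439, 876 bases) were identical to the mitochondrial gene over the whole alignment. Those of mt-Nd3 (Gm28438, 345 bases) and mt-Co1 (Gm29216, 483 bases) each had 1 mismatch. The spaces between consecutive copies had the same length as in the mitochondrial genome in 5 of 6 cases, over a mitochondrial span of 4653 bases (chrM:6390-11042). mt-Atp8 lies in that span. All but its last 43 bases, which it shares with mt-Atp6, fall in a space of 233 bases between the matched parts of mt-Co2 and mt-Atp6, and the chromosome 1 space is also 233 bases long. The start of mt-Atp6 (chrM:7927-8016, plus strand) and of its copy (chr1:24614562-24614651, minus strand) show the identity.
mt-Atp6: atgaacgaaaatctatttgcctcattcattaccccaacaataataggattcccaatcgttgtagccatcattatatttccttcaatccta
Gm10925: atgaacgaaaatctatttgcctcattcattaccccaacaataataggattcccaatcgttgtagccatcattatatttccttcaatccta

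The only mismatch of mt-Nd3 (chrM:9459-9519, plus strand) with its copy (chr1:24613059-24613119, minus strand) lies in the first codon and is in capitals.
mt-Nd3: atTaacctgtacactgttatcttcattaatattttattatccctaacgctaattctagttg
Gm28438: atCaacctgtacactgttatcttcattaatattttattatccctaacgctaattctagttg

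A more diverged copy of the region on chromosome 2 can be told from the mitochondrial gene at more positions. Its copy of mt-Co2, Gm13341, had 95.9% identity, with 16 mismatches and 1 gap over 684 aligned positions. The stretch below gives mt-Co2 (chrM:7184-7303, plus strand), the chromosome 1 copy (chr1:24615275-24615394, minus strand) and the chromosome 2 copy (chr2:22587672-22587791, minus strand), with the mismatches of the last in capitals.
mt-Co2: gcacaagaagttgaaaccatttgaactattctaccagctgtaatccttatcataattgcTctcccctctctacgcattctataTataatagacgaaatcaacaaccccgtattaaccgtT
Gm28661: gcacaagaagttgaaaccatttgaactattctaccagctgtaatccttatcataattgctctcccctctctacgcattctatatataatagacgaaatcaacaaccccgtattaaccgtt
Gm13341: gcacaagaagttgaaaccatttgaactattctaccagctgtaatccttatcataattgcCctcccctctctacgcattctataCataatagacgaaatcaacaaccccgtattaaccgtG

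How much of each gene is shared was counted as the percentage of its 50-base windows found exactly in an annotated nuclear transcript. It was 100% for mt-Co2, 99.9% for mt-Co3, 99.5% for mt-Atp6, 98.8% for mt-Nd4l, 98.0% for mt-Nd3, 62.2% for mt-Nd4 and 51.1% for mt-Co1. It was 8.19% for mt-Nd2, 7.61% for mt-Nd5 and 1.04% for mt-Rnr2, and 0 for mt-Rnr1, mt-Nd1, mt-Nd6, mt-Cytb and mt-Atp8. The 0 of mt-Atp8 does not mean that it shares no sequence: its last 43 of 204 bases, fewer than a window holds, are also in Gm10925. The unannotated space of 233 bases on chromosome 1 was not analysed here. The 5 mRNAs mt-Nd1, mt-Nd2, mt-Nd5, mt-Nd6 and mt-Cytb lie outside the span repeated on chromosome 1 and had no copy that passed the identity threshold.

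The reads listed at the copies were many. Reads were recovered from the RPKM values (reads scaled by gene length and by library size) with gene lengths, as described under the processing. For mt-Atp6, 5773, 5779 and 3749 reads were listed in WT replicates 1 to 3 and 4265, 6184 and 6198 in the Yy1-KO replicates. At its copy Gm10925, 90172, 107861 and 86577 reads were listed in WT and 90896, 106497 and 125027 in Yy1-KO. The copy thus held 94.0% to 95.8% of the reads of the pair in each of the 6 libraries. That percentage was 94.5% to 96.6% for mt-Co2, 96.3% to 97.5% for mt-Co3, 91.2% to 98.0% for mt-Nd3 and 91.1% to 96.9% for mt-Nd4l. It was 59.0% to 64.6% for mt-Nd4 and 17.2% to 22.1% for mt-Co1, the 2 genes that are repeated in part. The listed values of these 7 mRNAs, above all of the 5 repeated over nearly their whole length, therefore cover part of the reads with that sequence, and reads of gene and copy cannot be told apart where the sequence is the same. How reads that fit several places were counted is not stated, and some may have been dropped or listed at other copies.

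**Figure D1:**
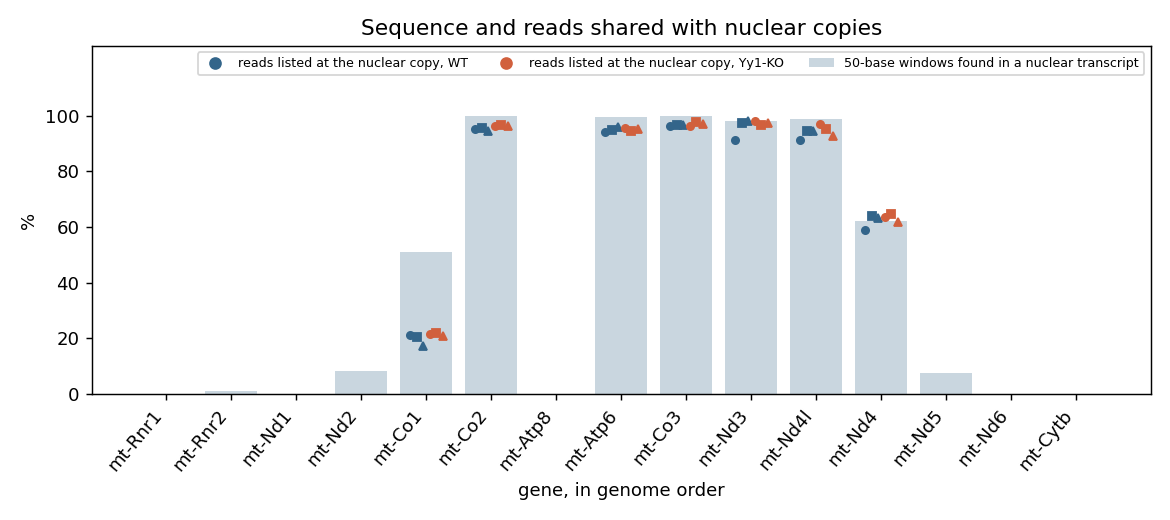
Bars give, for each mitochondrial gene in genome order, the percentage of its 50-base windows found exactly in an annotated nuclear transcript. Points give the percentage of the reads of the gene and its chromosome 1 copy that were listed at the copy, per library (circle, square and triangle for replicates 1, 2 and 3); for mt-Co2, mt-Atp6, mt-Co3, mt-Nd3 and mt-Nd4l all points lie above 91%.

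The libraries held 15102982 to 18460010 recovered reads in WT and 19473177 to 21757042 in Yy1-KO, so depth did not overlap between genotypes. The library size implied by the RPKM scale was smaller in every library, at 12920189 to 16112103 in WT and 17402757 to 19535462 in Yy1-KO. The reason for this gap was not tested, and shares of recovered reads below use the recovered totals. The part of depth in the results below was not tested either. Yy1 itself stood at 31.6, 42.3 and 52.1 RPKM in WT and at 36.2, 16.6 and 28.5 RPKM in Yy1-KO, and the library labelled Yy1-KO replicate 1 lay within the WT range. Kit stood at 112 to 140 RPKM in WT and 76.6 to 82.6 RPKM in Yy1-KO, so this gene of the sort was present in each library, as were Slamf1, the gene of CD150, at 2.21 to 5.96 RPKM and Ly6a, the gene of Sca1, at 26.1 to 84.7 RPKM. Cd48, whose product the sort selected against, had 0, 72 and 0 reads in WT and 0, 41 and 10 reads in Yy1-KO. Replicate 2 of each genotype, with most Cd48 reads, also had the highest sum of granulocyte markers within its genotype, 171 and 299 RPKM. The 11 stem and progenitor cell genes summed to 582 to 660.5 RPKM in WT and 403 to 432 RPKM in Yy1-KO. Of 6 B cell markers 1 was listed, and of 7 T and NK cell markers 3, with sums of 9.15 to 28.6 and 4.32 to 18.3 RPKM. All 7 megakaryocyte and platelet markers were listed, with sums of 21.3 to 36.6 RPKM in WT and 52.8 to 113 RPKM in Yy1-KO. The 8 listed of 10 granulocyte markers summed to 17.7 to 171 RPKM in WT and 35.2 to 299 RPKM in Yy1-KO, and the 5 listed of 10 erythroid markers to 35.6 to 54.6 and 44.4 to 138 RPKM. The 2 listed of 7 monocyte and macrophage markers summed to 80.03 to 121 and 67.0 to 95.8 RPKM, and the 4 listed of 6 endothelial and stromal markers to 8.98 to 14.5 and 8.97 to 11.8 RPKM. No listed marker stood at 0 in all 6 libraries. Whether these cell types have a part in the mitochondrial values was not tested. In bulk samples fewer cells of a type and less RNA per cell cannot be told apart.

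The 2 rRNAs were the most abundant mitochondrial rows and were lower in every Yy1-KO library than in every WT library. mt-Rnr1 stood at 22479, 17810 and 15668 RPKM in WT replicates 1 to 3 and at 13195, 13516 and 13438 RPKM in Yy1-KO replicates 1 to 3. This gave 18653 ± 3483 RPKM for WT and 13383 ± 167 RPKM for Yy1-KO (mean ± SD, n = 3 libraries, as for all later means). mt-Rnr2 stood at 25971, 21158 and 18690 RPKM in WT and at 15694, 16526 and 12931 RPKM in Yy1-KO, with means of 21940 ± 3703 and 15050 ± 1882 RPKM. WT replicate 1 was the highest library for both, and the Yy1-KO values of mt-Rnr1 lay much closer together than those of WT.

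In limma on log2(RPKM + 0.5), the log2 fold change of Yy1-KO over WT was -0.46 for mt-Rnr1 (standard error 0.46, adjusted p = 0.842) and -0.54 for mt-Rnr2 (standard error 0.49, adjusted p = 0.822). Neither passed the threshold of 0.05 for the Benjamini-Hochberg adjusted p, which no gene of the 13179 tested passed in either direction (0%). The standard errors depended on the settings of limma. Without its variance trend they were 0.25 and 0.26 (limma adjusted p = 0.740 and 0.711). They were also 0.25 and 0.26 with the gene filter at 5 RPKM (limma adjusted p = 0.687 and 0.644). The limma-voom fit of recovered reads gave log2 fold changes of -0.40 (standard error 0.11, adjusted p = 0.259) and -0.48 (standard error 0.11, adjusted p = 0.150), where 0.00763% of 13114 genes passed as lower and 0.0381% as higher. That fit called none of the 15 rows, and 3 had an unadjusted p under 0.05, all lower, beside 2.6% of all genes lower and 5.54% higher at that level. In the authors' deposited table both passed, mt-Rnr1 at a log2 fold change of -0.45 (adjusted p = 0.00260) and mt-Rnr2 at -0.54 (adjusted p = 0.000376), where 0.0707% of the 15553 genes passed as lower and 0.0836% as higher. At an unadjusted p under 0.05 the authors' deposited table had 5 of the 15 rows, all lower, beside 3.41% of all genes lower and 4.61% higher. Of the 15 rows 4 did not overlap between genotypes, both rRNAs, mt-Co2 and mt-Co3, all lower in Yy1-KO, beside 6.87% of the 13179 genes tested that were lower without overlap and 7.63% that were higher. Leaving out 1 library in turn kept mt-Rnr1 between -0.58 and -0.32 and mt-Rnr2 between -0.65 and -0.41. Quantile normalization put mt-Rnr1 at 0.073 and mt-Rnr2 at -0.073. It forces 1 distribution on all libraries, so a row that keeps its rank gets the same value in each. That setting can therefore hide a fall of abundant rows that keep their rank.

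As a share of all recovered reads, the 2 rRNAs took 5.35%, 4.41% and 3.80% in WT and 3.34%, 3.5% and 2.99% in Yy1-KO. The groups did not overlap, and the log2 difference was -0.45 (two-sided exact permutation p = 0.1, the smallest that 3 against 3 libraries allow). As a share of the summed RPKM, a scale per length, they took 11.6%, 9.75% and 7.68% in WT and 7.60%, 8.02% and 6.48% in Yy1-KO. On that scale Yy1-KO replicate 2 lay above WT replicate 3 (log2 difference -0.38, exact permutation p = 0.2), and without WT replicate 1 the log2 difference was -0.24. With the row Yam1 left out of the total, the log2 difference was -0.41 (exact permutation p = 0.1). Yam1 took 4.72%, 4.05% and 6.56% of the recovered reads in WT and 4.19%, 3.25% and 4.04% in Yy1-KO. The ratio of mt-Rnr2 to mt-Rnr1 in RPKM was 1.16, 1.19 and 1.19 in WT and 1.19, 1.22 and 0.962 in Yy1-KO, so in Yy1-KO replicate 3 the larger rRNA stood below the smaller one.

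**Figure D2:**
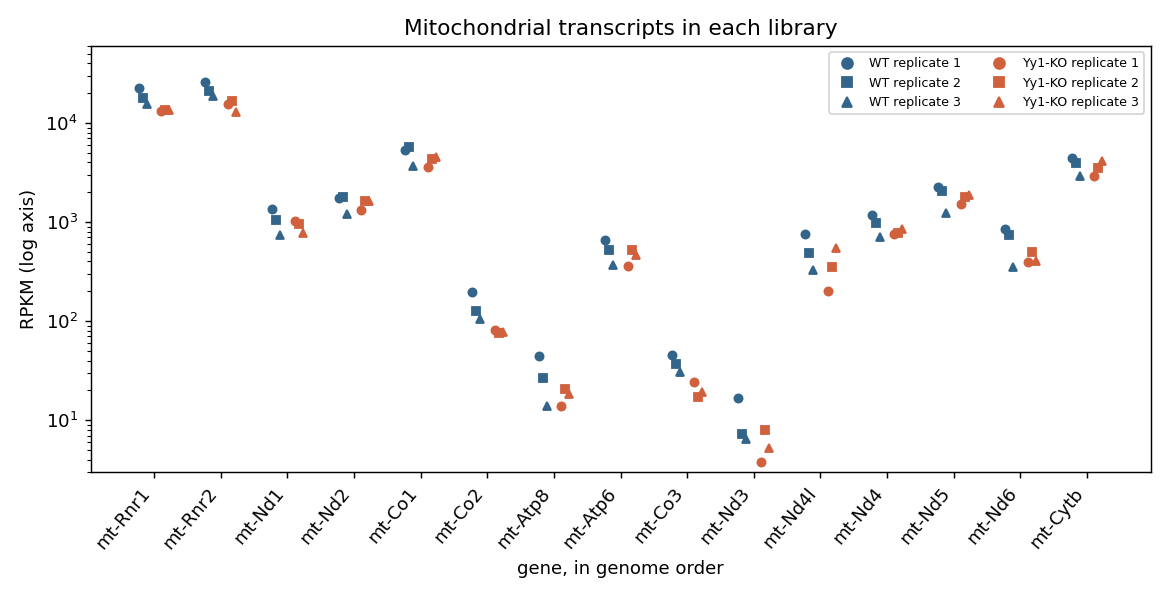
RPKM on a log axis of the 15 mitochondrial rows, in genome order, in 3 WT (blue) and 3 Yy1-KO (orange) libraries. For mt-Rnr1, mt-Rnr2, mt-Co2 and mt-Co3 all Yy1-KO points lie below all WT points, while the points of the other 11 rows overlap.

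The mRNAs spanned a wide range of levels. On the RPKM scale, and over all 6 libraries, mt-Co1 ranked first among them with a mean of 4519 RPKM, followed by mt-Cytb at 3628 RPKM, mt-Nd5 at 1786 RPKM, mt-Nd2 at 1564 RPKM, mt-Nd1 at 986 RPKM and mt-Nd4 at 877 RPKM. mt-Nd6 followed at 542 RPKM, mt-Atp6 at 483 RPKM, mt-Nd4l at 446 RPKM, mt-Co2 at 111 RPKM, mt-Co3 at 29.0 RPKM, mt-Atp8 at 22.9 RPKM and mt-Nd3 at 7.90 RPKM. mt-Co1 was above mt-Cytb in 6 of 6 libraries and mt-Nd5 above mt-Nd2 in 6 of 6, although their ranges over libraries overlapped. mt-Nd6 was above mt-Atp6 in 3 of 6 libraries and mt-Atp6 above mt-Nd4l in 4 of 6, so these 3 were not ordered. The lowest rows rested on few reads, 23 to 75 per library for mt-Nd3, 42 to 116 for mt-Atp8 and 237 to 465 for mt-Co3.

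This order changed when the reads of the chromosome 1 copies were added to the mitochondrial rows, an alternative chosen after the data were seen. mt-Atp6 then had 10077 ± 997 RPKM in WT and 9117 ± 963 RPKM in Yy1-KO and ranked 3 of 15 in place of 10. mt-Nd4l had 7768 ± 1676 and 7052 ± 413 RPKM and ranked 4 in place of 11. mt-Co2, at 2979 ± 1099 and 2159 ± 51.3 RPKM, ranked 7 in place of 12. mt-Co3, at 1060 ± 163 and 662 ± 40.9 RPKM, and mt-Nd3, at 256 ± 63.4 and 204 ± 23.9 RPKM, moved up by 1 rank each, to 12 and 14. mt-Atp8 also lies in the repeated span but had no listed copy whose reads could be added. It ranked 15 of 15, and its place is not like for like with the summed rows. These sums count reads listed at both loci and are no measure of the mitochondrial RNA alone.

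Between genotypes, all 13 mRNAs had a log2 fold change below 0 and none passed in limma. The median over the 13 was -0.24, beside 0.02 over all genes tested. At an unadjusted p under 0.05 there were 2, mt-Co2 and mt-Co3, both lower, where 3.06% of all genes were lower at that level. In limma-voom on recovered reads 11 of 13 lay below 0, with a median of -0.18 beside 0.09 over all genes, and the 2 above 0 were mt-Nd2 (0.031) and mt-Nd5 (0.013). With RPKM rescaled to the sum of rows that are not mitochondrial, the same 2 genes lay at 0.047 and 0.026. Under quantile normalization 9 of the 15 rows lay below 0. The 13 mRNAs come from shared precursors and are not independent of each other.

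WT replicate 1 held the highest value of 11 mRNAs and WT replicate 2 that of the other 2. The lowest value was in Yy1-KO replicate 1 for 6 mRNAs, in WT replicate 3 for 5 and in Yy1-KO replicate 2 for 2. Against the WT mean, the mean of the 13 mRNAs was 0.43, 0.06 and -0.49 log2 in WT replicates 1 to 3 and -0.56, -0.28 and -0.30 in the Yy1-KO replicates. WT replicate 3 thus lay lower than 2 of the 3 Yy1-KO libraries. Without WT replicate 1, 10 of the 15 mitochondrial rows lay below 0, without WT replicate 2 there were 13, and without the library labelled Yy1-KO replicate 1 there were 12.

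Complex IV, cytochrome c oxidase, is the terminal enzyme of the respiratory chain, and mt-Co1, mt-Co2 and mt-Co3 encode its core subunits. mt-Co2 (chrM:7013-7696) stood at 195, 127 and 106 RPKM in WT and at 81.2, 76.4 and 77.5 RPKM in Yy1-KO, without overlap. Its log2 fold change was -0.81 (standard error 0.24, limma adjusted p = 0.521). mt-Co3 (chrM:8607-9390) stood at 45.7, 36.8 and 30.6 RPKM in WT and at 24.6, 17.3 and 19.1 RPKM in Yy1-KO, again without overlap (log2 fold change -0.87, standard error 0.23, limma adjusted p = 0.456). mt-Co1 (chrM:5328-6872) overlapped, with 5392, 5662 and 3714 RPKM in WT and 3558, 4300 and 4486 RPKM in Yy1-KO (log2 fold change -0.24, standard error 0.32, limma adjusted p = 0.880). The 2 mRNAs without overlap are among those repeated over nearly their whole length on chromosome 1. Their separation of genotypes is set beside 6.87% of all genes tested.

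With the copies added, mt-Co2 overlapped between genotypes, at 4129, 2869 and 1940 RPKM in WT and 2121, 2217 and 2138 RPKM in Yy1-KO, and its log2 fold change was -0.40 (standard error 0.33, limma adjusted p = 0.805). The copy alone, Gm28661, had 3951, 2754 and 1842 RPKM in WT and 2049, 2150 and 2069 RPKM in Yy1-KO. mt-Co3 with its copy did not overlap, at 1235, 1032 and 913 RPKM in WT and 670, 698 and 617 RPKM in Yy1-KO (log2 fold change -0.67, standard error 0.20, limma adjusted p = 0.534), and it was the only one of the 13 summed mRNAs without overlap. Its copy Gm28437 alone stood at 1191, 996 and 883 RPKM in WT and 646, 682 and 599 RPKM in Yy1-KO. In the authors' deposited table Gm28437 passed at a log2 fold change of -0.66 (adjusted p = 0.0384), while mt-Co3 stood at -0.88 (adjusted p = 0.678) and mt-Co2 at -0.80 (adjusted p = 0.536). The mt-Co3 sequence was lower in Yy1-KO at both of its rows, and neither row passed in limma. The copy held 8804 to 12569 reads per library. Both rows hold reads of the same sequence, divided by a rule that is not stated, so they are not independent of each other.

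**Figure D3:**
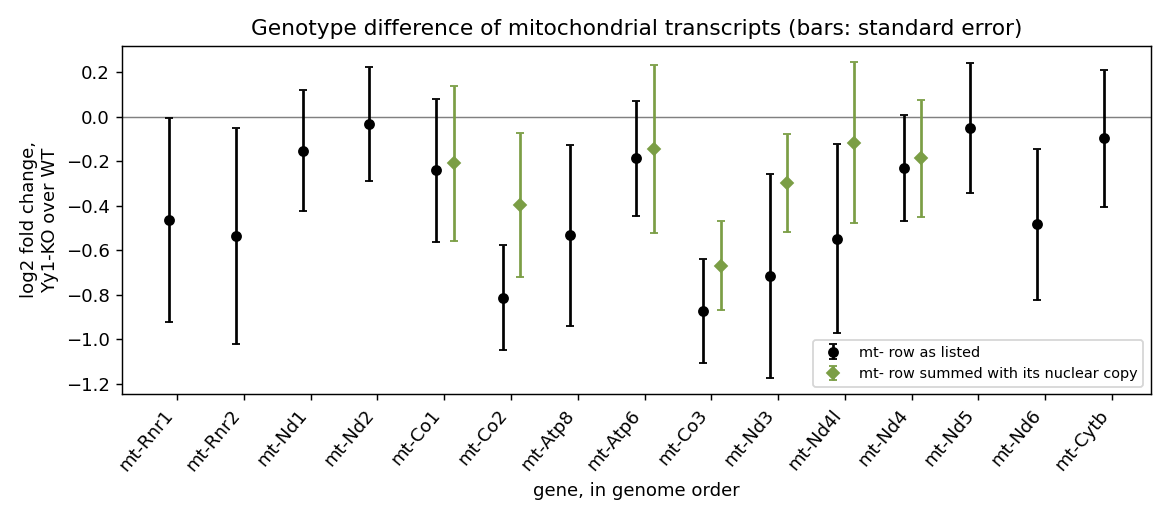
Log2 fold change of Yy1-KO over WT with its standard error in limma, for the 15 mitochondrial rows as listed (black circles) and for 7 mRNAs summed with their chromosome 1 copy (green diamonds). All points lie below 0; with the copy, mt-Co2 moved from -0.81 to -0.40, mt-Nd3 from -0.72 to -0.30 and mt-Nd4l from -0.55 to -0.12.

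Complex I, the NADH dehydrogenase that feeds electrons into the chain, takes 7 of its subunits from the mitochondrial genome. None of their mRNAs separated the genotypes. mt-Nd5 (chrM:11742-13565) stood at 2243, 2041 and 1244 RPKM in WT and at 1517, 1793 and 1878 RPKM in Yy1-KO, with a log2 fold change of -0.05 (standard error 0.29). mt-Nd2 (chrM:3914-4951) stood at 1764, 1805 and 1202 RPKM in WT and at 1329, 1647 and 1638 RPKM in Yy1-KO (log2 fold change -0.03, standard error 0.26). In both, WT replicate 3 was the lowest of the 6 libraries, and WT replicates 1 and 2 lay above all Yy1-KO libraries.

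mt-Nd1 (chrM:2751-3707) stood at 1350, 1058 and 739 RPKM in WT and at 1036, 959 and 773 RPKM in Yy1-KO, with a log2 fold change of -0.15 (standard error 0.27). mt-Nd4 (chrM:10167-11544) stood at 1182, 981 and 704 RPKM in WT and at 762, 772 and 860 RPKM in Yy1-KO (log2 fold change -0.23, standard error 0.24). Summed with its copy, mt-Nd4 had a log2 fold change of -0.19 (standard error 0.26). WT replicate 1 was the highest library for both genes and WT replicate 3 the lowest. mt-Nd4l (chrM:9877-10173) spread widely among the Yy1-KO libraries, at 202, 352 and 544 RPKM against 766, 483 and 327 RPKM in WT (log2 fold change -0.55, standard error 0.42, and -0.12 with its copy). mt-Nd3 (chrM:9459-9806) stood at 16.7, 7.31 and 6.41 RPKM in WT and at 3.80, 7.88 and 5.30 RPKM in Yy1-KO (log2 fold change -0.72, standard error 0.46, and -0.30 with its copy).

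mt-Nd6 is the only mRNA transcribed from the opposite strand to the other 12, and it is one of those outside the chromosome 1 span. It lies at chrM:13552-14070 and stood at 853, 744 and 350 RPKM in WT and at 396, 504 and 407 RPKM in Yy1-KO (log2 fold change -0.48, standard error 0.34, limma adjusted p = 0.776). WT replicates 1 and 2 lay above all Yy1-KO libraries and WT replicate 3 below them. Its ratio to the summed RPKM of the other 12 mRNAs was 0.0473, 0.0445 and 0.0307 in WT and 0.0336, 0.0362 and 0.0273 in Yy1-KO (log2 difference -0.32, two-sided exact permutation p = 0.3). No source used here gives the strand setting of the counting, so reads from the antisense precursor cannot be told apart from mt-Nd6 RNA.

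Complex III, the cytochrome bc1 complex, has mt-Cytb as its mitochondrial subunit, and no near-identical copy of it was found. mt-Cytb (chrM:14145-15288) stood at 4394, 3946 and 2933 RPKM in WT and at 2910, 3482 and 4101 RPKM in Yy1-KO, with a log2 fold change of -0.10 (standard error 0.31, limma adjusted p = 0.954). Complex V, the ATP synthase, takes mt-Atp6 and mt-Atp8. mt-Atp6 (chrM:7927-8607) stood at 656, 527 and 372 RPKM in WT and at 360, 519 and 466 RPKM in Yy1-KO (log2 fold change -0.19, standard error 0.26, and -0.15 with its copy). mt-Atp8 (chrM:7766-7969) stood at 44.0, 26.5 and 13.9 RPKM in WT and at 13.8, 20.7 and 18.3 RPKM in Yy1-KO (log2 fold change -0.53, standard error 0.41), on at most 116 reads. The genotypes overlapped in all 3.

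Summed by complex, the mRNA share of the summed RPKM overlapped between genotypes in each of the 4 complexes. Complex I took 1.59% ± 0.499 in WT and 1.5% ± 0.117 in Yy1-KO, complex III 0.899% ± 0.214 and 0.901% ± 0.124, complex IV 1.22% ± 0.319 and 1.09% ± 0.110, and complex V 0.131% ± 0.0414 and 0.120% ± 0.0230. The exact permutation p was 0.6 to 1, and 1 for each after adjustment over the 4. The WT SD was larger than the Yy1-KO SD in every complex, with WT replicate 3 the lowest of the 6 libraries in all 4. These sums use the rows as listed, without the chromosome 1 copies. For mt-Atp6 of complex V, the copy held 94.0% to 95.8% of the reads of the pair. The complexes can therefore not be ranked by these shares.

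Within the mRNA pool, each mRNA was taken as a share of the summed RPKM of the 13. mt-Nd2 took 9.33%, 10.3% and 10.2% in WT and 10.9%, 11.4% and 10.7% in Yy1-KO, and mt-Nd5 took 11.9%, 11.7% and 10.6% in WT and 12.4%, 12.4% and 12.3% in Yy1-KO. In both, all Yy1-KO shares lay above all WT shares. The shares of mt-Co2 (0.888% ± 0.151 in WT, 0.567% ± 0.0864 in Yy1-KO) and mt-Co3 (0.238% ± 0.0251 and 0.149% ± 0.0457) lay below, without overlap. Each of these 4 had an exact permutation p of 0.1, the smallest possible, and 0.325 after Benjamini-Hochberg adjustment over the 13 shares. The other 9 overlapped. In this pool of rows as listed, mt-Co1 and mt-Cytb had the largest shares, 30.9% ± 2.07 and 23.6% ± 1.22 in WT and 29.4% ± 0.292 and 24.9% ± 1.66 in Yy1-KO. With the chromosome 1 copies added, mt-Atp6 (10077 RPKM in WT) and mt-Nd4l (7768 RPKM) stood above mt-Co1 (6154 RPKM). They also stood above mt-Cytb, which has no such copy (3758 RPKM). The shares thus depend on where reads were listed.

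Taken as a whole, the 13 mRNA rows took 2.01%, 1.94% and 1.27% of the recovered reads in WT and 1.39%, 1.65% and 1.75% in Yy1-KO. The groups overlapped (log2 difference -0.10, exact permutation p = 0.6). As a share of the summed RPKM, the measure planned first, they took 4.54%, 4.37% and 2.62% in WT and 3.21%, 3.86% and 3.75% in Yy1-KO. The groups overlapped there too, and the log2 difference was -0.05. The 5 mRNAs outside the chromosome 1 span took 2.13% ± 0.598 of the summed RPKM in WT and 2.10% ± 0.184 in Yy1-KO (log2 difference 0.02, exact permutation p = 1). The 7 copies took a further 1.34% ± 0.242 of the recovered reads in WT and 1.21% ± 0.0876 in Yy1-KO. The ratio of summed mRNA RPKM to summed rRNA RPKM was 0.390, 0.448 and 0.342 in WT and 0.422, 0.481 and 0.579 in Yy1-KO. Its mean was higher in Yy1-KO, with 1 pair of libraries in the other order (log2 difference 0.33, exact permutation p = 0.2). Without Yy1-KO replicate 3, the library with mt-Rnr2 below mt-Rnr1, it was 0.21. With reads in place of RPKM and the copies counted with the mRNAs, that log2 difference was 0.34 (exact permutation p = 0.2).

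**Figure D4:**
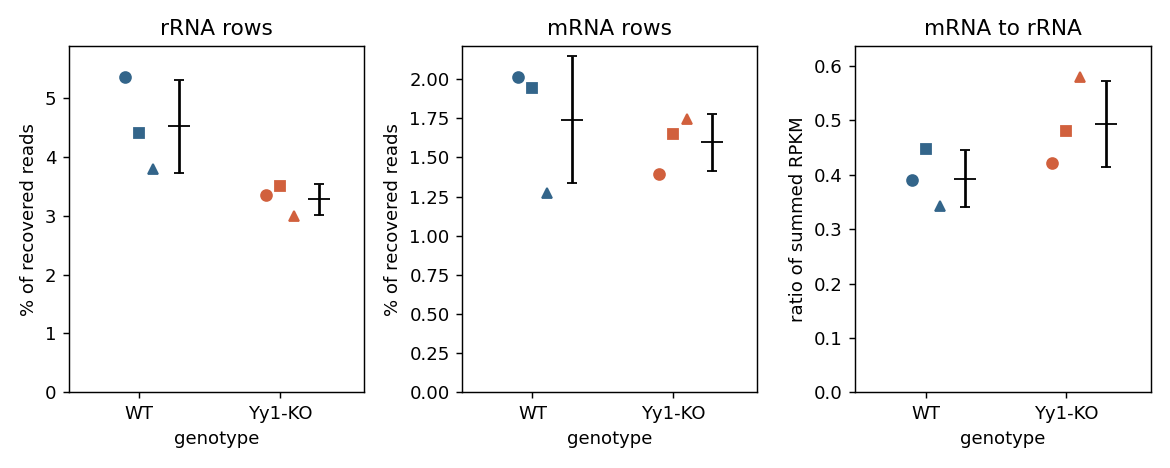
Percentage of recovered reads at the rRNA rows and at the mRNA rows, and the ratio of summed mRNA to summed rRNA RPKM, per library (circle, square and triangle for replicates 1, 2 and 3), with the mean and SD of each genotype in black. The rRNA shares of Yy1-KO (2.99% to 3.5%) lie below those of WT (3.80% to 5.35%), while the mRNA shares overlap.

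Nuclear genes that copy, transcribe, process or stabilise mitochondrial RNA, or regulate mitochondrial genes, showed no gene past the limma threshold. Of 80 symbols listed, older names included, 71 were in the data and 69 were tested. Their median was -0.06 on the log2 scale, with 30 genes above 0 and 39 lower than 0. Unadjusted p under 0.05 was reached by 3, all higher, where 4.73% of all genes were higher at that level. Rexo2, an oligoribonuclease gene, went from 23.0 ± 5.54 to 41.3 ± 13 RPKM. Tefm, which encodes the mitochondrial transcription elongation factor, went from 5.59 ± 3.13 to 12.1 ± 1.95 RPKM. Tfam, which packages mitochondrial DNA and starts its transcription, stood at 24.6, 23.1 and 21.4 RPKM in WT and at 35.3, 26.9 and 38.4 RPKM in Yy1-KO, without overlap (log2 fold change 0.52, standard error 0.21, limma adjusted p = 0.626).

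The polymerase gene Polrmt stood at 4.09 ± 1.18 RPKM in WT and 3.58 ± 0.767 RPKM in Yy1-KO, Tfb2m at 6.88 ± 3.17 and 11.6 ± 3.5 RPKM, and Lrpprc at 16.1 ± 1.5 and 15.7 ± 2.03 RPKM, with overlap in each. On the lower side, the genes with the smallest p were Myc, a general activator of growth genes, at 54.0 ± 11.7 and 37.3 ± 8.82 RPKM, the tRNA modification gene Trmu at 12.1 ± 5.19 and 6.02 ± 1.64 RPKM, and Yy1 itself, which is known to bind promoters of nuclear mitochondrial genes. By step, the median log2 fold change was -0.04 for DNA maintenance (13 genes tested), -0.04 for transcription (9), -0.08 for RNA processing and modification (20) and -0.10 for RNA stability and decay (16). It was -0.38 for regulators of nuclear mitochondrial genes (11), a list that includes Yy1, the targeted gene.

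Nuclear-encoded subunits of the respiratory chain had a median of 0.12 on the log2 scale over 77 genes tested, 47 above 0 and 30 below, beside -0.24 for the 13 mitochondrial mRNAs. No gene passed in limma. At an unadjusted p under 0.05, 5 of the 77 lay higher and 2 lower, beside 4.73% and 3.06% of all genes. The medians were 0.19 for complex I (36 genes), -0.01 for complex II (4), -0.01 for complex III (9), 0.23 for complex IV (12) and 0.11 for complex V (16). The complex I genes Ndufs6 (18.1 ± 6.84 RPKM in WT, 48.9 ± 14.5 in Yy1-KO) and Ndufa10 (18.9 ± 0.422 and 30.6 ± 3.49 RPKM) and the ATP synthase gene Atp5l (1.1 ± 0.364 and 5.98 ± 3.76 RPKM) had the smallest p among the higher genes. Among the lower ones these were the complex I gene Ndufa2 (39.1 ± 9.40 and 18.7 ± 1.63 RPKM), Ndufa4 (30.9 ± 14.5 and 13.05 ± 3.39 RPKM), whose product is a subunit of complex IV, and the ATP synthase gene Atp5e (18.3 ± 3.75 and 12.6 ± 0.676 RPKM). Limma adjusted p-values in this list were at least 0.429, and whether nuclear and mitochondrial subunits differ was not tested.

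**Figure D5:**
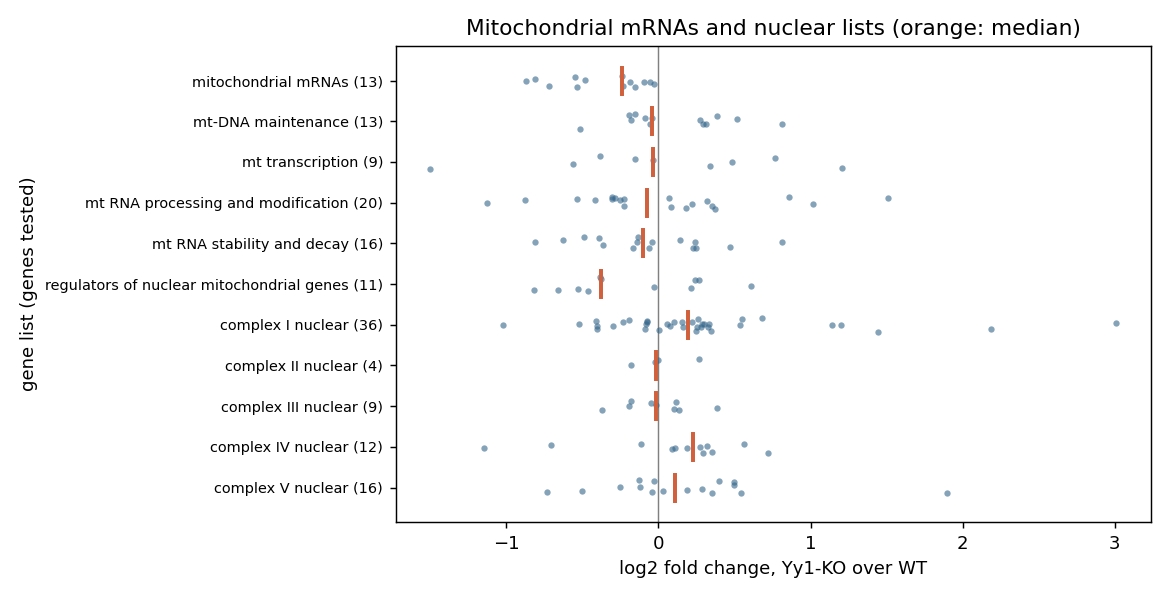
Log2 fold change of Yy1-KO over WT per gene (blue points, scattered vertically for sight) and the median of each list (orange), with the number of genes tested in brackets. The 13 mitochondrial mRNAs all lie below 0 (median -0.24), while each nuclear list holds genes on both sides of 0.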

How the data were processed

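The submitters' processing notes name mm10, Subread, featureCounts, edgeR and limma as what the authors used; versions and settings are not given in the sources used here. Per the labels' protocols, an RNeasy Micro kit and the Ovation RNA-Seq System V2 were used. The 6 library columns deposited by the authors behaved as RPKM, which was found from the values. The authors' log2 fold change, p-value and adjusted p-value columns are named per the file headers, and their test is not stated. The deposited table lists 15553 genes after a filter that is not given.

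Reads were recovered by multiplying RPKM by the exonic gene length of GENCODE M21 (15465 genes with a length) and dividing by the step of 1 read. Between 71.7% and 72.7% of the values above 0 of a library came out whole, within 0.02 reads; the others are estimates. The amplified reads are not independent molecules. Depth per library is given in the report, and it limits mt-Nd3 and mt-Atp8 most.

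The test, on log2(RPKM + 0.5), was that of limma 3.58.1 (R 4.3.3), with a variance trend and genotype as the term, over 13179 genes that reached 1 RPKM in 3 or more libraries, adjusted by Benjamini-Hochberg at 0.05. Fold changes are on that scale, which understates low genes. The script was tested on simulated data. Single values were compared on a log2 scale by a two-sided exact permutation test (scipy 1.17.1; 20 arrangements). Copies were found with blastn (BLAST+ 2.17.0) against the M21 transcripts, which do not cover unannotated sequence; printed sequences are from those transcripts. Each mt- row and 4 transcription and stability genes were named by rule. So were the 3 genes with the smallest p per direction among the nuclear mitochondrial RNA genes, all lists pooled. The same was done among the nuclear respiratory chain genes, all complexes pooled. Nuclear copies came from a list, except Gm10222, which was found by sequence and added after its values were seen, as was the 99% identity threshold. The members and lists were chosen with earlier results of these data known.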

Additional observations from a re-analysis of the deposited data

How the results depend on the processing

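None of the 15 mitochondrial rows, of the machinery genes or of the nuclear respiratory chain genes passed the adjusted threshold under any alternative run. Over all genes, 0 passed as reported, 6 in limma-voom on recovered reads, and 0 to 1 without 1 library, with or without the copies added. The median of the 13 mRNAs was below 0 in each alternative but came near it, at -0.042 under quantile normalization. It was -0.43 to -0.14 without 1 library as listed, and -0.37 to -0.086 with the copies added. Quantile normalization can hide a fall of abundant rows that keep their rank. Rows that lay above 0 under it were mt-Rnr1 (0.073), mt-Nd1 (0.030), mt-Nd2 (0.20), mt-Co1 (0.12), mt-Nd5 (0.12) and mt-Cytb (0.20). With scaling on non-mitochondrial rows these were mt-Nd2 (0.047) and mt-Nd5 (0.026), and in limma-voom mt-Nd2 (0.031) and mt-Nd5 (0.013). Without 1 library, with or without the copies added, mt-Nd1 ranged from -0.38 to 0.051, mt-Nd2 from -0.22 to 0.072, mt-Nd5 from -0.31 to 0.11, mt-Cytb from -0.27 to 0.028 and, as listed, mt-Atp6 from -0.41 to 0.0010. As listed, the other rows stayed below 0, and among them mt-Nd6, mt-Atp8, mt-Nd3 and mt-Nd4l had the widest log2 ranges. mt-Nd6 ranged from -0.88 (without WT replicate 3) to -0.24 (without WT replicate 1), and mt-Atp8 from -0.95 to -0.14 (the same libraries). The range of mt-Nd3 was -0.97 (without Yy1-KO replicate 2) to -0.31 (without WT replicate 1). That of mt-Nd4l was -0.89 (without Yy1-KO replicate 3) to -0.18 (without Yy1-KO replicate 1). mt-Nd4 ranged from -0.43 (without WT replicate 3) to -0.061 (without WT replicate 1). mt-Co1 ranged from -0.43 (without WT replicate 3) to -0.13 (without WT replicate 2). The values above 0 with the copies added were, without WT replicate 1, 0.051 for mt-Nd1, 0.055 for mt-Nd2, 0.11 for mt-Nd5 and 0.026 for mt-Cytb; without WT replicate 2, 0.072 for mt-Nd2 and 0.044 for mt-Nd5; and without Yy1-KO replicate 1, 0.070 for mt-Nd2, 0.039 for mt-Nd5 and 0.028 for mt-Cytb. The mRNA share of summed RPKM ranged from -0.31 to 0.087 log2, and the shares of complex I from -0.32 to 0.15, complex III from -0.19 to 0.15, complex IV from -0.37 to 0.0072 and complex V from -0.36 to 0.12. Within the mRNA pool, the share of mt-Nd1 ranged from -0.16 to 0.21 and that of mt-Atp6 from -0.10 to 0.042. The cause of these changes was not tested.

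Same-numbered libraries of the genotypes had correlations of 0.02, 0.06 and 0.05 between their deviations over 13179 genes. Those of differently numbered libraries were -0.076 to 0.035. All were small, so the numbers were not taken as pairs. With a replicate block, limma called 0 genes. The block could not alter the log2 fold changes of the 15 rows, because each block held a library of each genotype. No mitochondrial tRNA share was computed, since no tRNA row was analysed.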
